A study of Mus musculus with 9 samples.

Results

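The genes described are 8 genes of the sterol pathway under the transcription factor SREBP2: Srebf2, Insig1, Hmgcs1, Idi1, Fdps, Sqle, Lss and Dhcr7. They were taken by symbol from a table of 53607 rows, and all 8 were among the 14501 genes tested. RNA was measured in mouse skeletal stem cells (mSSC), progenitors of cartilage and bone, sorted from callus, the repair tissue that bridges a break, of femurs fractured 10 days earlier in C57BL/6J mice. The groups were adult mice of 2 months, middle-aged mice of 12 months and aged mice of 24 months, with 3 libraries each and no treatment other than the fracture. All groups share the injury, so there was no uninjured bone to set them against. The sort kept cells with ITGAV and without TIE2, CD45, TER119, CD105, 6C3 and THY1, and took 500 to 1000 of them for a library. Whether the 3 libraries of an age are separate animals is not given in the labels, and the p-values therefore rest on the spread between libraries, which may be technical.

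Cells make cholesterol from acetyl-CoA through the mevalonate pathway, and intermediates of the pathway also serve for isoprenoids, ubiquinone and dolichol. When sterol in the endoplasmic reticulum is low, the escort protein SCAP brings SREBP2 to the Golgi, where proteases release the part that enters the nucleus and switches on the genes of synthesis and uptake. When sterol is high, INSIG proteins hold SCAP and SREBP2 back. Cartilage cells need sterol synthesis for growth, and cholesterol also modifies Hedgehog proteins, which control cartilage in the growth plate and callus.

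Levels are in TPM, which sets the reads of a transcript against its length and the library's total. Fold changes are differences of log2(TPM + 1), with limma's standard error (SE). Calls were made where the Benjamini-Hochberg adjusted p over all 14501 genes, from 1 limma fit of the 9 libraries, was under 0.05. From 13387 to 13813 genes per library reached 1 TPM, and the depth of each library is unknown, since TPM keeps none. Library 1 of 24 months stood apart from the others, with a mean correlation across genes of 0.932, against 0.953 to 0.962. Of the cartilage markers, all 9 were present in every library, with Col2a1 between 13900 and 41600 TPM. Of the genes of proteins that the sort removed, Tek (TIE2) stayed at or under 0.301 TPM and Ptprc (CD45) at or under 0.281 TPM, while Enpep (6C3) reached 1.63 TPM, Eng (CD105) 4.08 TPM and Thy1 4.27 TPM.

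The 8 genes had their lowest mean at 12 months, and in each of them all 3 libraries of 12 months lay below all 3 of 2 months, where 15.4% of all genes tested did so. Summed over the 8 genes, the libraries held 505 to 575 TPM at 2 months, 269 to 317 TPM at 12 months and 402 to 520 TPM at 24 months. Relative to 2 months, the mean at 12 months was between 40.3% (Lss) and 67.0% (Srebf2), and the mean at 24 months between 56.3% (Insig1) and 117% (Fdps). Insig1 fell at 12 against 2 months, 1 of the 8 called lower, where 0.462% of all genes were. Fdps rose at 24 against 12 months, 1 of the 8 called higher, where 0.152% of all genes were. None of the 8 was called at 24 against 2 months (limma), where 0.159% of all genes were and 1 of the 8 had an unadjusted p under 0.05. In bulk samples, fewer cells of a type and less RNA per cell cannot be told apart.

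**Figure D1:**
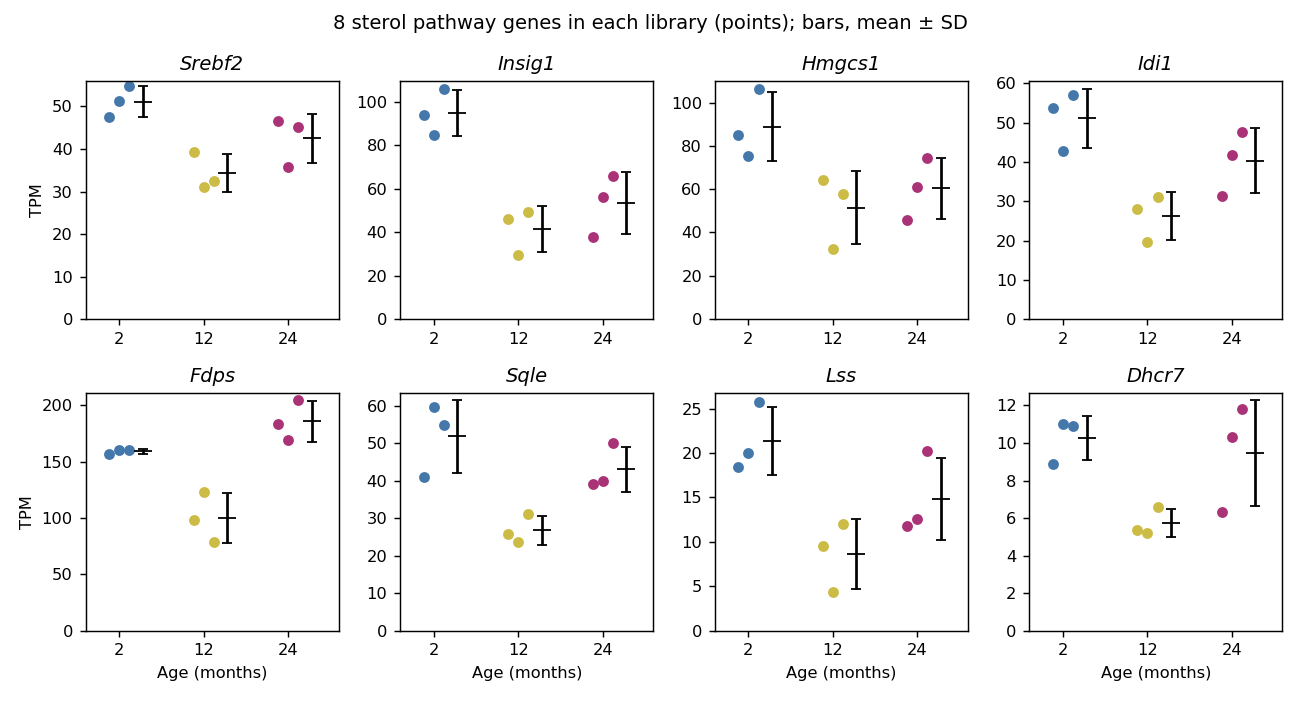
Abundance (TPM, vertical axis from 0) of the 8 genes at 2, 12 and 24 months (horizontal axis). Points are the 3 libraries of an age and bars the mean ± SD; in each panel the 3 points of 12 months lie below the 3 of 2 months.

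The promoters of these genes are shown because SREBP2 acts there together with the factors NF-Y and Sp1, and because all 8 genes lay lower at 12 than at 2 months without overlap. RefSeq promoter windows (GRCm38.p6, 250 bases before to 50 after each start) matched 6 of the 8 genes, all but Fdps and Sqle, and Dhcr7 had 3 windows. The motifs searched on both strands were TCACNCCAC (the sterol regulatory element), the looser TCACNCNAC, which holds the first, CCAAT (NF-Y) and GGGCGG (Sp1). TCACNCCA, the element without its last base, was added after the windows were seen. The stretch printed of a window is not typical of it, since it was chosen to hold the most kinds of motif and then the most matches. For Dhcr7 the stretch is from the only one of its windows that held CCAAT. Below are 100 bases per gene, 5′ to 3′ on the gene's plus strand, with matches to TCACNCCAC, TCACNCCA, CCAAT and GGGCGG on either strand in capitals.
Srebf2, chr15:82147055-82147154: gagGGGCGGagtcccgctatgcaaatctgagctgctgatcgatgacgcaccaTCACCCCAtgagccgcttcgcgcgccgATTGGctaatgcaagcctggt
Insig1, chr5:28071175-28071274: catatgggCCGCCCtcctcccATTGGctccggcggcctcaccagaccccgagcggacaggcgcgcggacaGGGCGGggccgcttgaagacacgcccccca
Hmgcs1, chr13:119690172-119690271: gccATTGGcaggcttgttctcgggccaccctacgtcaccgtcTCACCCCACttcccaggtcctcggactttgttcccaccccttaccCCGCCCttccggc
Idi1, chr13:8885502-8885601: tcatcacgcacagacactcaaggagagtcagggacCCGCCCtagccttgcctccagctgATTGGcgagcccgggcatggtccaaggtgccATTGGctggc
Lss, chr10:76531463-76531562: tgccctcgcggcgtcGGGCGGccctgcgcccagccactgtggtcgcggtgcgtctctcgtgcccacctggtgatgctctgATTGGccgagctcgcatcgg
Dhcr7, chr7:143830107-143830206: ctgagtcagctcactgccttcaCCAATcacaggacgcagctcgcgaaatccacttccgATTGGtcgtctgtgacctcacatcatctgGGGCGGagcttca

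All 6 matched genes held CCAAT and all 6 held GGGCGG in at least 1 window, where 37.4% and 35.7% of all 32851 windows hold them and 12.8% hold both. These shares are per window, and Dhcr7 had more than 1 window in which to match. The whole element TCACNCCAC was found in the Hmgcs1 window and in none of the other 5 genes, against 1.24% of all windows. The looser TCACNCNAC gave the same single gene, against 2.70% of windows. TCACNCCA was found in Hmgcs1 and Srebf2, against 4.36% of windows. Of 13 other enzymes of the pathway 11 had a window, of which 10 held CCAAT and 10 held GGGCGG. None of these 11 held TCACNCCAC, 1 held TCACNCNAC and 1 held TCACNCCA. Of 6 uptake and transport genes that SREBP2 can control, 3 had a window. None of these 3 held any form of the element, 2 held CCAAT and 2 held GGGCGG. A match is a description of the letters, and a missing match says only that these letters are not in this window.

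Srebf2, on chromosome 15 (82147181 to 82205379, plus strand, GENCODE M21 on GRCm38, ENSMUSG00000022463.8), encodes SREBP2 itself and is also one of its own targets. It had 47.6, 51.2 and 54.7 TPM in libraries 1, 2 and 3 of 2 months, 39.4, 31.0 and 32.5 TPM at 12 months, and 46.5, 35.8 and 45.2 TPM at 24 months. The libraries of 12 months were all below those of 2 months, and those of 24 months lay between and overlapped with 12 months. It averaged 34.3 ± 4.48 TPM at 12 months and 51.2 ± 3.57 TPM at 2 months (SD, n = 3). The log2 fold change, -0.57 ± 0.17 (SE, limma adjusted p = 0.130), was the smallest in size of the 8. Mir33, a microRNA gene within Srebf2, was listed at 0 in every library.

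Insig1, on chromosome 5 (28071363 to 28078662, plus strand, ENSMUSG00000045294.11), encodes the protein that retains SCAP and SREBP2, and is itself induced by SREBP2. It had 93.9, 84.8 and 106 TPM at 2 months, 46.0, 29.5 and 49.5 TPM at 12 months, and 37.9, 56.3 and 65.9 TPM at 24 months. All 6 libraries of the older ages lay below the 3 of 2 months. Insig1 averaged 41.6 ± 10.7 TPM at 12 months and 94.8 ± 10.5 TPM at 2 months (SD, n = 3). It fell, by a log2 ratio of -1.20 ± 0.24 (SE, limma adjusted p = 0.0439, with a range of 0.0125 to 0.216 over 20 alternatives). At 24 against 2 months it had -0.85 ± 0.24 (0.168), the lowest of the 8 genes in that comparison, where it was the one gene of the 8 with an unadjusted p under 0.05. Its call at 12 against 2 months did not hold when any single library of 2 or 12 months, or the second of 24 months, was left out (limma adjusted p from 0.0618 to 0.216), while the fold change stayed between -1.33 and -0.97.

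The next 3 genes encode early enzymes, which lead to the isoprenoid units. Hmgcs1, on chromosome 13 (119690379 to 119708260, plus strand, ENSMUSG00000093930.2), makes HMG-CoA early in the mevalonate steps. It had 85.0, 75.4 and 106 TPM at 2 months, 64.1, 32.4 and 58.0 TPM at 12 months, and 45.8, 60.8 and 74.4 TPM at 24 months. The libraries of 12 and 24 months overlapped, and all 6 lay below those of 2 months. Its log2 fold change was -0.82 ± 0.26 at 12 against 2 months (limma adjusted p = 0.160) and -0.56 ± 0.26 at 24 against 2 months (0.348). At 24 against 12 months it was 0.26 ± 0.26, and -0.041 without library 2 of 12 months.

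Idi1, on chromosome 13 (8885501 to 8892451, plus strand, ENSMUSG00000058258.14), interconverts the pair of 5-carbon isoprenoid units. It had 53.7, 42.7 and 57.0 TPM at 2 months, 28.1, 19.5 and 31.1 TPM at 12 months, and 31.3, 41.8 and 47.6 TPM at 24 months. All 3 libraries of 12 months lay below the other 6, with the lowest library of 24 months next to them. The log2 fold change was -0.95 ± 0.22 at 12 against 2 months (limma adjusted p = 0.0772) and 0.60 ± 0.22 at 24 against 12 months (0.239). Its paralog Idi2 reached at most 0.140 TPM.

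Fdps, on chromosome 3 (89093588 to 89101959, minus strand, ENSMUSG00000059743.12), makes farnesyl diphosphate and is the enzyme that nitrogen-containing bisphosphonates inhibit in osteoclasts. It was the most abundant of the 8 and the only one with its highest mean at 24 months. It had 157, 161 and 160 TPM at 2 months, 98.3, 123 and 78.9 TPM at 12 months, and 183, 169 and 205 TPM at 24 months. The 3 ages did not overlap, with 12 months lowest and 24 months highest. Fdps averaged 186 ± 17.9 TPM at 24 months and 100.1 ± 22.2 TPM at 12 months (SD, n = 3), and rose by 0.90 ± 0.17 on the log2 scale (SE, limma adjusted p = 0.0406, range 0.0146 to 0.178 over 20 alternatives). At 12 against 2 months it had -0.69 ± 0.17 (adjusted p = 0.0843), and at 24 against 2 months 0.22 ± 0.17 (0.571). Its call at 24 against 12 months held when library 2 of 12 or library 3 of 24 months was left out, and was lost without each of the other 7 (limma adjusted p from 0.0691 to 0.166). It was also lost with quantile (0.0544) and median-of-ratios (0.0851) scaling. Gm43738, a gene model that overlaps Fdps on the same strand, reached at most 0.0300 TPM.

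The last 3 genes act on squalene and sterols. Sqle, on chromosome 15 (59315077 to 59331192, plus strand, ENSMUSG00000022351.14), is squalene epoxidase, a second control point of the pathway. It had 40.9, 59.7 and 54.9 TPM at 2 months, 25.8, 23.6 and 31.1 TPM at 12 months, and 39.2, 40.0 and 50.1 TPM at 24 months. The libraries of 2 and 24 months overlapped, and those of 12 months lay below both. Its log2 fold change was -0.92 ± 0.19 at 12 against 2 months (limma adjusted p = 0.0551) and 0.66 ± 0.19 at 24 against 12 months (0.163).

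Lss, on chromosome 10 (76531588 to 76557138, plus strand, ENSMUSG00000033105.12), is lanosterol synthase, which closes the sterol rings. It had 18.4, 20.0 and 25.7 TPM at 2 months, 9.53, 4.31 and 12.0 TPM at 12 months, and 11.8, 12.6 and 20.2 TPM at 24 months. Library 2 of 12 months was the lowest by far, and the spread within 12 months, an SD of 0.675 on the log2 scale, was the widest of the 8 genes at any age. The log2 fold change at 12 against 2 months was -1.30 ± 0.33, the largest in size of the 8, and did not pass (limma adjusted p = 0.0920).

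Dhcr7, on chromosome 7 (143823145 to 143848410, plus strand, ENSMUSG00000058454.15), reduces 7-dehydrocholesterol to cholesterol, the step that is deficient in Smith-Lemli-Opitz syndrome in humans. It had 8.89, 11.0 and 10.9 TPM at 2 months, 5.38, 5.22 and 6.59 TPM at 12 months, and 6.31, 10.3 and 11.8 TPM at 24 months. It was the least abundant of the 8. Library 1 of 24 months lay among those of 12 months, and the other two of 24 months lay with those of 2 months. The log2 fold change was -0.74 ± 0.26 at 12 against 2 months (limma adjusted p = 0.193) and -0.14 ± 0.26 at 24 against 2 months (0.836), or 0.10 without library 1 of 24 months.

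**Figure D2:**
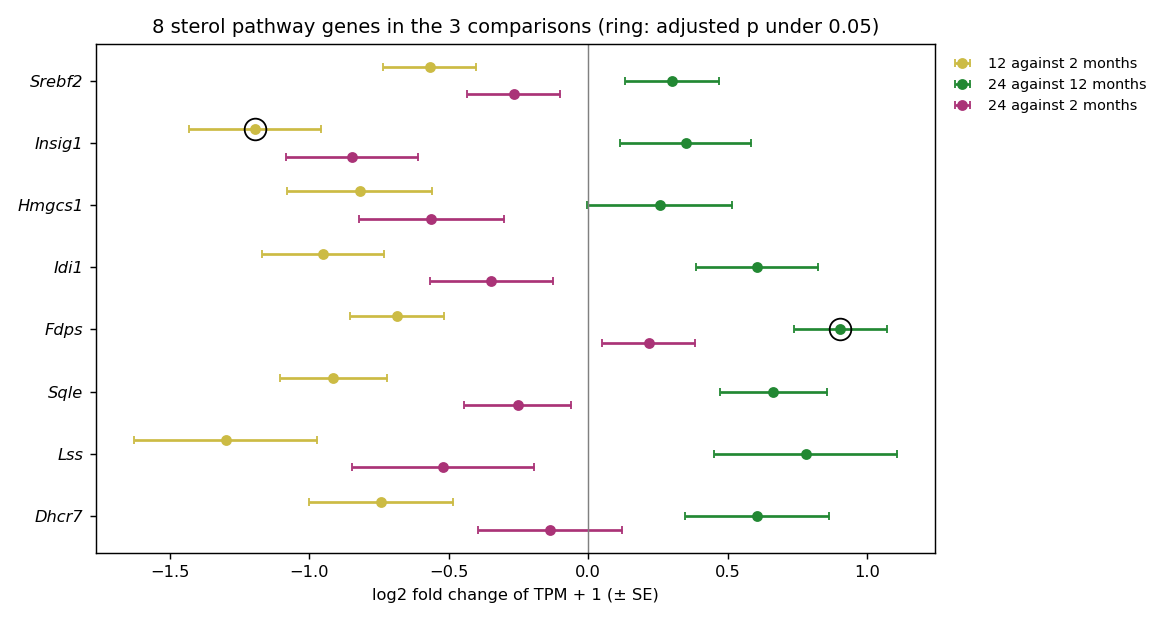
Log2 fold change of TPM + 1 with its SE (horizontal axis) for the 8 genes (rows) in the 3 comparisons of ages, with rings on the values that passed. All 8 values at 12 against 2 months lie between -1.30 and -0.57, all 8 at 24 against 12 months between 0.26 and 0.90, and Fdps alone is above 0 at 24 against 2 months.

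Set side by side, the comparisons share libraries and are not independent. At 12 against 2 months all 8 log2 fold changes were negative, as were 57.2% of all genes, with a median of -0.87, where the median over all genes was -0.07. All 8 had an unadjusted p under 0.05 with a negative fold change, where 9.65% of all genes did. For 24 against 12 months all 8 were positive, as were 57.4% of all genes, with a median of 0.60 (0.07 over all genes). Of the 8, 5 were positive with an unadjusted p under 0.05 there, namely Idi1, Fdps, Sqle, Lss and Dhcr7, where 9.09% of all genes were. Idi1, Fdps and Sqle, 3 of the 8, lay above 12 months without overlap, where 11.1% of all genes did.

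For 24 against 2 months 7 of 8 were negative, as were 52.1% of all genes, with a median of -0.31 (-0.02 over all genes). The 1 gene with an unadjusted p under 0.05 compares with 14.5% of all genes. Srebf2, Insig1 and Hmgcs1 lay below 2 months without overlap, where 8.97% of all genes did, and Fdps lay above, where 11.2% did. The moderated F test (limma) for a difference of any kind between the 3 ages called none of the 8, where 0.759% of all genes were called. All 8 had an unadjusted p under 0.05 in it, where 18.1% of all genes did, and Fdps came nearest with an adjusted p of 0.0511.

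A further contrast set 12 months against the mean of 2 and 24 months, which can be negative where only 1 of those ages is higher. All 8 genes were negative, as were 58.7% of all genes, with a median of -0.78 (-0.07 over all genes). All 8 had an unadjusted p under 0.05, where 9.52% of all genes were negative with such a p. Fdps fell, with -0.79 ± 0.14 (SE, limma adjusted p = 0.0290, range 0.00868 to 0.134 over 19 alternatives), and so did Sqle, with -0.79 ± 0.17 (0.0496, range 0.0325 to 0.187). That is 2 of 8 called lower, where 0.448% of all genes were. The next were Idi1 with -0.78 ± 0.19 (0.0786), Insig1 with -0.77 ± 0.20 (0.0987) and Lss with -1.04 ± 0.28 (0.106). In Idi1, Fdps and Sqle all 3 libraries of 12 months lay below the other 6, as in 4.44% of all genes. The Fdps call was lost when a library of 2 months, number 1 or 3 of 12 months, or number 2 of 24 months was left out (limma adjusted p from 0.0516 to 0.134). The Sqle call held without library 1 of 24 months (0.0450) and was lost without any other single library (0.0504 to 0.187).

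Within an age, the order of the libraries was as follows. Library 2 of 12 months was the lowest of its age in 7 of 8 genes and the highest in Fdps. At 24 months library 3 was the highest in 7 genes and library 1 the lowest in 6, while the order at 2 months was mixed. There library 3 was the highest in 5 genes, library 2 the highest in 3 and the lowest in 3, and library 1 the lowest in 5. Across the 9 libraries, Pearson's r of each gene with the average of the other 7 (each centred and scaled on log2(TPM + 1)) was between 0.824 and 0.951 for 7 genes and 0.554 for Fdps. The 9 points include the shift between ages, so r describes the ages and the libraries together.

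Cartilage markers were low or high in some of the same libraries. The summed level of the 9 cartilage markers was 62975, 58698 and 65455 TPM at 2 months, 40738, 30738 and 41217 TPM at 12 months, and 26538, 25650 and 47926 TPM at 24 months. Most of that sum was Col2a1, which averaged 39494 TPM at 2 months. Library 2 of 12 months and library 3 of 24 months, which were low and high in most of the 8 genes, were also the lowest and highest of their age in cartilage markers. At 24 months the cartilage sum stayed low in libraries 1 and 2, while the sum over the 8 genes was 402 and 427 TPM there, above every library of 12 months. Fdps alone made up 183 and 169 TPM of these sums. In library 1, Insig1, Hmgcs1, Lss and Dhcr7 lay below the highest library of 12 months, and Srebf2, Idi1, Fdps and Sqle above it. In library 2, Srebf2 and Hmgcs1 lay below the highest library of 12 months, and the others above it. All 9 cartilage markers were negative at 12 against 2 months, with a median of -0.58, and at 24 against 12 months 7 of 9 were negative, with a median of -0.28. At 24 against 2 months all 9 were negative, with a median of -0.82 and none called (limma). All 9 had an unadjusted p under 0.05 there, where 14.5% of all genes did in either direction. At 12 against 2 months 4 of the 9 were negative with such a p, as were 9.65% of all genes. The part of the cartilage markers in the result was not tested.

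Markers of other cells had the following summed levels. Smooth muscle and pericyte markers, 8 genes, summed to 64.1 to 173 TPM at 2 months, 52.8 to 418 TPM at 12 months and 420 to 1022 TPM at 24 months. At 24 against 2 months all 7 that were tested were positive, with a median of 2.36. All 7 had an unadjusted p under 0.05 there, where 14.5% of all genes did in either direction, and Actg2 was called higher (limma adjusted p = 0.0355). At 24 against 12 months 6 of the 7 were positive with such a p, as were 9.09% of all genes. Adipocyte markers, 6 genes, summed to 17.7 to 32.2 TPM at 2 months, 78.7 to 116 TPM at 12 months and 53.7 to 73.4 TPM at 24 months. Most of that sum was Fabp4, which rose at 12 against 2 months (2.37 ± 0.26, limma adjusted p = 0.00245), while Adipoq, Plin1 and Cidec stayed under 1 TPM in every library. Macrophage markers, 8 genes, summed to 9.25 to 15.4, 14.8 to 36.5 and 14.5 to 43.0 TPM at 2, 12 and 24 months. Lyz2 was most of that sum and averaged 9.48, 19.1 and 18.4 TPM at these ages. All 4 macrophage markers that were tested were positive at 12 against 2 months (none called by limma, 2 with an unadjusted p under 0.05). Of these, C1qb had 1.28, 6.12 and 2.37 TPM at 12 months and was listed at 0 in the 3 libraries of 2 months. Tyrobp had 1.45, 5.34 and 3.33 TPM at 12 months, against 0, 0.539 and 0 TPM at 2 months, while Adgre1 stayed at or under 0.298 TPM in every library. Endothelial markers stayed under 9 TPM in sum. Of 8 osteoblast markers, 8 were negative at 12 against 2 months, with a median of -0.81, where 57.2% of all genes were negative. None was called (limma), and 4 were negative with an unadjusted p under 0.05, as were 9.65% of all genes. At 24 against 12 months 7 were positive, with a median of 0.39, where 57.4% of all genes were positive. The osteoblast sum ranged over 14013 to 24962, 10436 to 21580 and 12074 to 30223 TPM at 2, 12 and 24 months. Most of it was Spp1, Ibsp and Col1a1, which averaged 8946, 6101 and 3278 TPM at 2 months. The red blood cell sum ranged over 151 to 338, 221 to 926 and 73.3 to 965 TPM at these ages. Library 2 of 12 months had the highest smooth muscle, red blood cell and endothelial sums of its age (418, 926 and 8.87 TPM). Its osteoblast sum was the lowest (10436 TPM). Library 3 of 24 months had the lowest smooth muscle, red blood cell and osteoblast sums of its age (420, 73.3 and 12074 TPM). Its endothelial sum was the highest (7.40 TPM). Library 1 of 24 months had the highest red blood cell and macrophage sums (965 and 43.0 TPM). The part of these markers in the result was not tested.

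The other enzymes of cholesterol synthesis were counted next. Of 13 others, all tested, 13 were negative at 12 against 2 months, with a median of -0.55, and 2 were called lower. Over all genes, 57.2% were negative and 0.462% were called lower there. Cyp51, the demethylase that acts on lanosterol, had 58.4, 68.7 and 76.2 TPM at 2 months, 32.5, 27.9 and 35.0 TPM at 12 months and 55.8, 47.0 and 62.4 TPM at 24 months. All 3 libraries of 12 months lay below the other 6. It averaged 31.8 ± 3.65 TPM at 12 months and 67.8 ± 8.91 TPM at 2 months (SD, n = 3), and fell with -1.07 ± 0.17 (SE, limma adjusted p = 0.0197). Of the 19 enzymes described, the F test called Cyp51 alone (0.0292). Mvd, the decarboxylase at the end of the mevalonate steps, fell with -0.98 ± 0.20 (0.0488), and stood at 23.0 ± 1.62 TPM at 24 months against 23.2 ± 4.78 TPM at 2 months. Mvd and Cyp51 were also called lower at 12 months against the mean of the other ages, with -0.99 ± 0.17 (0.0234) and -0.92 ± 0.15 (0.0202).

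These calls also rested on single libraries. Without 1 library at a time, the limma adjusted p at 12 against 2 months ranged from 0.0136 to 0.117 for Cyp51 and from 0.0390 to 0.241 for Mvd. In both, the highest value was without library 3 of 2 months. The call of Mvd held only without library 1 or 3 of 24 months, and Cyp51 lost its call when library 2 or 3 of 2 months, or 1 or 2 of 12 months, was left out. Against the mean of the other ages, these ranges were 0.0234 to 0.129 for Mvd and 0.0186 to 0.0825 for Cyp51. The calls at 12 against 2 months depended on the setting too. Mvd lost its call with an offset of 0.1 (limma adjusted p = 0.0587) or 5 (0.0530) and with quantile scaling (0.0519). Both genes lost it without a filter (Mvd 0.126, Cyp51 0.0901) and without the intensity trend (0.129 and 0.0991). Hsd17b7 (-1.06 ± 0.28), Sc5d (-0.97 ± 0.26) and Msmo1 (-0.87 ± 0.24), all of the late sterol steps, did not pass (limma adjusted p from 0.0968 to 0.113). Values near 0 were those of Ebp (-0.11 ± 0.21) and, chosen after their values were seen, Pmvk (-0.01 ± 0.16) and Mvk (-0.10 ± 0.25). The Ebp value was 0.021 without library 1 of 12 months. Pmvk and Mvk are the kinases of mevalonate, which act just before the step of Mvd. Over these 19 enzymes, 6 of them among the 8 genes, the median was -0.74 at 12 against 2 months, 0.57 at 24 against 12 months and -0.21 at 24 against 2 months.

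**Figure D3:**
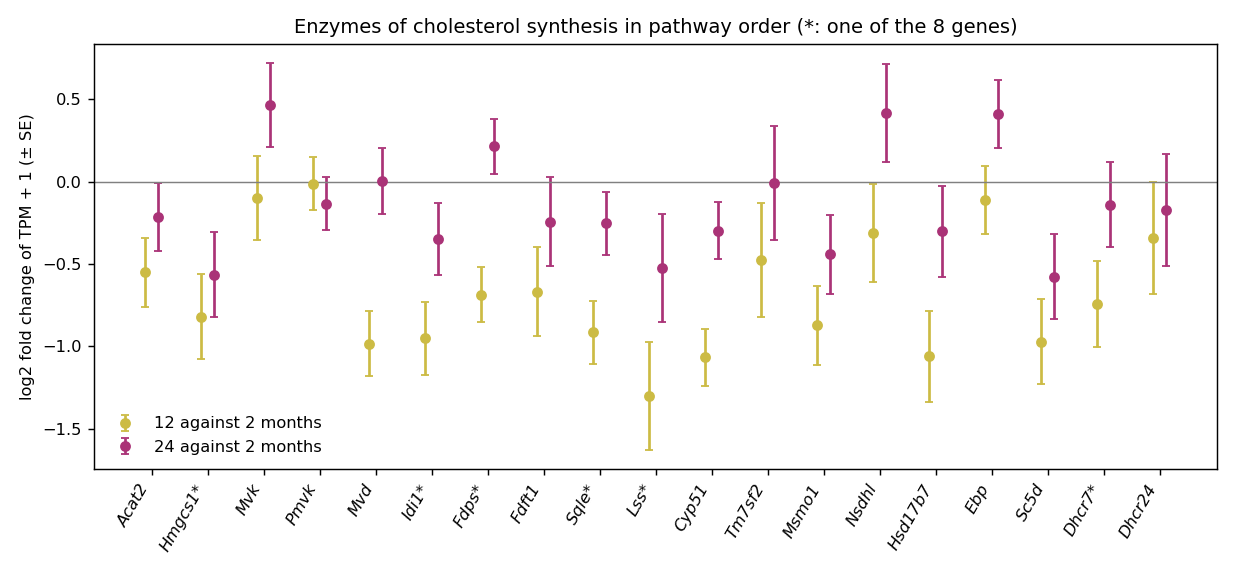
Log2 fold change of TPM + 1 with its SE (vertical axis) of 19 enzymes in the order of the pathway (horizontal axis), at 12 against 2 months and at 24 against 2 months. All 19 values are below 0 at 12 against 2 months, with Pmvk, Mvk and Ebp nearest to it, while at 24 against 2 months the values lie on both sides of 0.

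Of 6 uptake and transport genes that SREBP2 can control, all tested, 5 were negative at 12 against 2 months, with a median of -0.26. None was called there by limma, and 0 had an unadjusted p under 0.05. Scarb1, a receptor for high-density lipoprotein, had -0.47 ± 0.23, the sterol carrier gene Stard4 -0.46 ± 0.22, Lrp8 -0.42 ± 0.31 and Tmem97 -0.11 ± 0.16. The Tmem97 value was 0.0065 without library 1 of 2 months.

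Of 9 other regulators of SREBP, none was called in any comparison by limma. At 12 against 2 months 2 were negative with an unadjusted p under 0.05, as were 9.65% of all genes. The median of the 9 was -0.30 there. Srebf1, whose product drives fatty acid synthesis, had -0.54 ± 0.17 (limma adjusted p = 0.167), the site-1 protease gene Mbtps1 -0.67 ± 0.27, the escort gene Scap -0.41 ± 0.23 and Erlin1 -0.30 ± 0.39. At 24 against 2 months Scap had -0.66 ± 0.23, with 6.70, 10.4 and 12.0 TPM at 24 months and 14.4, 16.1 and 16.1 TPM at 2 months. Insig2, the paralog of Insig1, chosen after its values were seen, ranged from 36.9 to 85.9 TPM and its ages overlapped.

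Fatty acid synthesis genes, 11 of 12 tested, had a median of -0.81 at 12 against 2 months, close to that of the 8 genes, and 10 of 11 were negative. None was called by limma, and 8 were negative with an unadjusted p under 0.05, as were 9.65% of all genes. Acly, which makes the acetyl-CoA that both pathways use, had 18.7, 16.0 and 25.4 TPM at 12 months and 37.9, 49.5 and 50.3 TPM at 2 months, and its log2 ratio was -1.17 ± 0.27 (limma adjusted p = 0.0761). The desaturases Fads1 and Fads2 had -0.93 ± 0.27 and -0.79 ± 0.22, and Pnpla3 -1.40 ± 0.51. At 24 against 12 months 7 of 11 were positive, with a median of 0.29.

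The lists of LXR genes, of oxysterols, esters and lysosomal release, and of isoprenoid branch enzymes held no called gene in any comparison (limma). LXR factors and targets, which answer to high sterol, had a median of -0.35 at 12 against 2 months over 6 tested genes, with Lpcat3 at -0.43 ± 0.24, Mylip at -0.36 ± 0.21, Nr1h2 at 0.27 ± 0.14 and Apoe at 0.77 ± 0.53. Of them 0 had an unadjusted p under 0.05 at 12 against 2 months. Genes of oxysterols, esters and lysosomal release had a median of -0.03 over 6 genes, with Cyp7b1 at 0.65 ± 0.33, Soat1 at 0.21 ± 0.24, Ch25h at -0.19 ± 0.39 and Lipa at -0.04 ± 0.26. The Lipa value was 0.10 with quantile and 0.042 with median-of-ratios scaling. Of these too 0 had an unadjusted p under 0.05 at 12 against 2 months. At 24 against 2 months Cyp7b1 alone of this list had such a p, with 1.24 ± 0.33 (limma adjusted p = 0.162). Lpcat3 alone of the LXR list had one there, with -0.66 ± 0.24 (0.259). At 12 against 2 months the branch enzymes of the isoprenoid pathway, 9 genes, had a median of -0.29. Dhdds, for dolichol, was at -0.65 ± 0.19, Pggt1b at -0.49 ± 0.27, Coq2, for ubiquinone, at -0.29 ± 0.17 and Ggps1 at 0.34 ± 0.21. Of the 9 genes 1 was negative with an unadjusted p under 0.05 there, as were 9.65% of all genes.

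**Figure D4:**
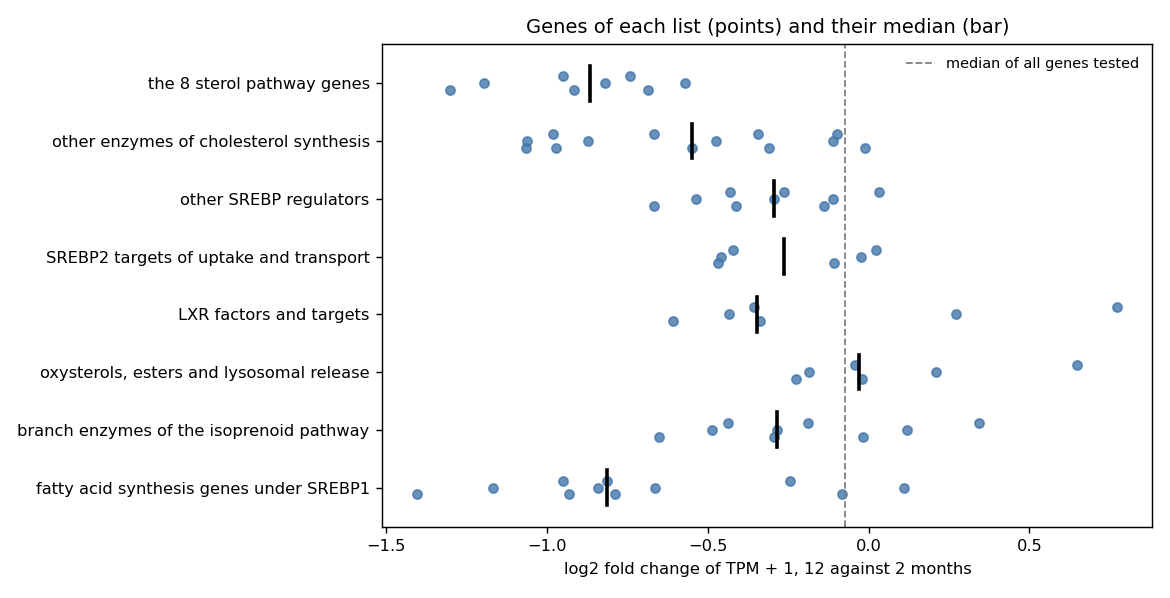
Log2 fold change of TPM + 1 at 12 against 2 months (horizontal axis) for the genes of each list (points) and the list's median (bar), with the median of all genes tested as a dashed line. The medians of the 8 genes (-0.87), fatty acid synthesis (-0.81) and the other enzymes (-0.55) lie farthest below 0, and that of oxysterols, esters and lysosomal release (-0.03) lies near it.

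The genes outside these lists whose levels followed the average of the 8 most closely over the 9 libraries were Adamts3, Sidt2, Ccnl1, Copa, Tns2, Stat3, Fig4 and Stau1. Their Pearson's r with the average was between 0.961 and 0.982, chosen as the highest of 8261 genes. Among the other enzymes the highest r was that of Cyp51, 0.958. The average is itself low at 12 months, so this choice largely fixed that these genes are low there too, and their values are a description with no test. Sidt2, a lysosomal membrane protein, had 57.9 ± 16.1 TPM at 12 months and 155 ± 17.6 TPM at 2 months (SD, n = 3). Stat3, the transcription factor of interleukin-6 family signals, had 72.2 ± 6.33 TPM at 12 months and 128 ± 17.9 TPM at 2 months. Adamts3, a procollagen protease, had 6.37 ± 1.45 TPM at 12 months and 16.0 ± 4.02 TPM at 2 months. Copa, a coat protein of Golgi vesicles, had 107 ± 16.7 TPM at 12 months and 179 ± 6.16 TPM at 2 months.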

How the data were processed

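One log2 value per gene symbol and library was deposited. Undoing the log2 scale and taking off 1 made every column sum to 1e+06, so the deposited values were read as log2(TPM + 1). Salmon and GRCm38.p6 are named per the submitters' processing notes; its version, the annotation and how transcripts were joined into genes were not given in the sources used here. Salmon divides reads among transcripts with shared sequence and the strand is not stated, which makes overlapping genes uncertain. As the headers hold an age without a number, libraries of an age are numbered in file order.

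The filter asked for 1 TPM in 3 of 9 libraries. A limma 3.58.1 model with age means (R 4.3.3, trended eBayes, 6 residual df, two-sided tests) gave the 3 comparisons of ages, 12 months against the mean of 2 and 24, and a moderated F test, with Benjamini-Hochberg adjustment over all 14501 genes. It was tested on simulated data. The 8 genes and every list were chosen with earlier results of these data known. All 8 genes are named, and from other pathway lists the called genes and up to 4 of smallest F-test p. Outside the lists, the 8 genes of highest r among those averaging at least 5 TPM are named. Gene models, pseudogenes, mitochondrially encoded genes and symbols that start with Rps or Rpl were left out of that choice. The 26 entries with a date as symbol were tested, not named. Alternatives changed offset, filter, scaling, variance model, weights, threshold and libraries. Gene positions came from GENCODE M21 and promoters from RefSeq, both on GRCm38. Some genes of these pathways are not reported here and are left out of the list counts.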

Additional observations from a re-analysis of the deposited data

How the results depend on the processing

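The direction of the 8 genes at 12 against 2 months held in all 160 values of 20 alternatives, and in all 152 values of 19 alternatives at 12 months against the mean of 2 and 24. At 24 against 12 and at 24 against 2 months 159 of 160 values kept their sign each. Much of this was fixed in advance, because the filters, the intensity trend, the threshold and a fit of the 2 ages leave a fold change as it was. So does leaving out a library of an age that is not compared. At 12 against 2 months the ages did not overlap in any of the 8 genes, so leaving out 1 library could not turn a sign. The medians over the 8 genes ranged from -0.98 to -0.77 at 12 against 2 months, from 0.41 to 0.75 at 24 against 12, from -0.42 to -0.24 at 24 against 2 and from -0.83 to -0.60 at 12 against the mean. The calls depended on the setting. At 12 against 2 months, 1 gene was called as reported, 0 with an offset of 0.1, without a filter or without the intensity trend, 2 with a filter at 5 TPM or quantile scaling, 3 in a fit of the 2 ages, 5 with array quality weights or a threshold of 0.10, and 0 to 3 without 1 library. At 24 against 12 months, 1 was called, 0 with an offset of 0.1, no filter, quantile or median-of-ratios scaling, no trend or a fit of the 2 ages, and 0 to 1 without 1 library. At 12 against the mean, 2 were called, 1 with an offset of 0.1, median-of-ratios scaling or rescaling on totals that leave out the top 50 and mitochondrial genes, 0 without a filter or trend, 4 with weights or a threshold of 0.10, and 0 to 4 without 1 library. In the F test 0 were called, 1 with an offset of 5, 2 with a filter at 5 TPM, 4 with weights, 3 with a threshold of 0.10, and 0 to 3 without 1 library. At 24 against 2 months 0 of the 8 were called in all 20 alternatives. With the library that stood apart (24 months, library 1) left out, 3, 0, 4 and 1 of the 8 were called at 12 against 2, 24 against 12, 12 against the mean and in the F test. The calls among all 14501 genes moved as well. Without that library they were 220, 12 and 209 in the first 3 of these, against 105, 66 and 146 with it. At 12 against 2 months they were 370 with weights, 405 with a threshold of 0.10 and 57 with an offset of 0.1. They were 123 with quantile scaling, 270 in a fit of the 2 ages and 15 without the trend. With a filter at 5 TPM they were 150 of 9698 genes, and without a filter 8 of 33101. At 12 against the mean they were 423 with weights, 398 with a threshold of 0.10 and 91 with an offset of 0.1. At 24 against 12 months they were 90 with quantile and 100 with median-of-ratios scaling. The cause was not tested.

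Over all genes, 105 were called at 12 against 2 months (8 to 405 over the alternatives), 66 at 24 against 12 (0 to 345), 23 at 24 against 2 (0 to 430), 146 at 12 against the mean (6 to 423) and 110 in the F test (0 to 687). Signs changed for values near 0. Leaving out 1 library gave -0.041 to 0.44 for Hmgcs1 at 24 against 12 months and -0.30 to 0.10 for Dhcr7 at 24 against 2 months. It gave -0.14 to 0.15 for Mvd at 24 against 2 months, which had -0.059 on rescaling. At 12 against 2 months it gave -0.23 to 0.0065 for Tmem97, -0.52 to 0.020 for Ch25h, -0.25 to 0.021 for Ebp and -0.20 to 0.24 for Lipa, which had 0.10 with quantile and 0.042 with median-of-ratios scaling. No paired analysis was possible because the columns carry no replicate number. TPM keeps no depth, so counting error could not be given.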
